A study of Homo sapiens with 8 samples.

Results

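Ribosome profiling of small open reading frames (smORFs) was compared between differentiated control and undifferentiated Caco-2 cells, an established line grown from a human colon adenocarcinoma. The comparison used 4 of the 8 libraries of the series, 2 per state, and all 24199 smORFs of the count table were eligible. smORFs were described here by the function of the annotated host gene over which they lie. The differentiated control cells are labelled as differentiated and control, the undifferentiated cells as such and nothing more, and both are of the same line. For mass spectrometry, the authors grew differentiated Caco-2 plates for longer and then kept them overnight without serum, a step not given for undifferentiated plates. Whether these libraries followed that protocol is not stated, and the part of culture time or serum was not tested. The other 4 libraries came from differentiated cells given micelles, either with taurocholate and no lipid or with oleic acid and cholesterol on bovine serum albumin, and their values are quoted only as a further look at differentiated cells. How long the cells were differentiated for this experiment is not given in the labels, nor do the labels say that replicates were separate cultures, so that p-values measure only the spread between these libraries.

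Confluent Caco-2 cells leave the cell cycle, polarize and build a brush border, and they switch on genes of nutrient absorption together with many genes that are typical of hepatocytes and fetal gut. smORFs lie mostly in the 5′ untranslated region of messenger RNAs (uORFs), less often in the 3′ untranslated region (dORFs) or in long non-coding RNAs, and ribosomes on them are counted as protected fragments. A footprint count on a smORF therefore depends on how much of the host RNA is present and on how often ribosomes occupy that stretch of it. These libraries hold footprints alone, so RNA level and translation could not be separated, and fewer cells of a type and less RNA per cell cannot be told apart in such bulk samples.

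The smORFs that carry the comparison are short, and the deposited frame of many opens with a codon other than ATG. The sequences printed here are of smORFs whose counts separate the 2 states, on hg38, 5′ to 3′ on their own strand, with the first codon in capitals. APOA4, the apolipoprotein of chylomicrons (IEC_16317, uORF, chr11:116823285-116823302, minus strand), FABP1, the cytosolic carrier of long-chain fatty acids (IEC_14386, uORF, chr2:88128042-88128062, minus strand), HNF4A-AS1, the RNA antisense to the enterocyte and hepatocyte regulator HNF4A (IEC_19478, chr20:44395475-44395564, minus strand), and MIR210HG, the host RNA of a microRNA that is known to respond to hypoxia (IEC_20318, chr11:567037-567267, minus strand), are shown for smORFs that were higher in differentiated cells. CDK1, the kinase that drives entry into mitosis (IEC_04721, uORF, chr10:60778479-60778508, plus strand), is shown for smORFs that were lower.
APOA4 IEC_16317: TTCccactgcagcgcagg
FABP1 IEC_14386: GGCagagccgcaggtcagtcg
HNF4A-AS1 IEC_19478: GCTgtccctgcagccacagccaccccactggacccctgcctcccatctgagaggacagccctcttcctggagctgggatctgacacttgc
MIR210HG IEC_20318: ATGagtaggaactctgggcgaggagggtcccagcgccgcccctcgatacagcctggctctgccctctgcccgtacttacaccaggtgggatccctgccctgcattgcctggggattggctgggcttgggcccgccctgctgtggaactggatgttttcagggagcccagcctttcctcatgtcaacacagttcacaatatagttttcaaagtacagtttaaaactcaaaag
CDK1 IEC_04721: CACttggcttcaaagctggctcttggaaat

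Of the 24199 smORFs, 15182 had enough counts to be tested and 9017 did not. Differentiated control libraries totalled 506382 and 786310 smORF counts, and undifferentiated libraries 671323 and 584101, so 3 counts correspond to between 3.49 and 5.86 CPM over the 8 libraries. CPM is the count of a smORF relative to the TMM-scaled total of smORF counts of its library. Changes are given as the log2 fold change of differentiated control over undifferentiated with its standard error (SE) and the Benjamini-Hochberg adjusted p of edgeR's quasi-likelihood test. A smORF was called higher or lower when that p was below 0.05 and its log2 fold change was 1 or more in either direction. Where each library of a state had 3 counts or fewer, the fold is given as a limit against 3 counts per library.

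The footprints of many smORFs differed between the 2 states, in both directions. Of the tested smORFs, 33.3% were called, 17.7% (2692) higher and 15.6% (2368) lower. The median absolute log2 fold change of the called smORFs was 1.83 for those higher and 1.78 for those lower, and 282 and 225 of them changed by at least 3 on that scale. In 806 of the smORFs called higher, both undifferentiated libraries held 3 counts or fewer, against 274 of those called lower with such counts in both differentiated libraries. To describe host genes, each was represented by its tested smORF with the highest mean CPM over the 4 libraries. Of 7369 host genes 4746 could be tested, and 34.5% of these were called, 16.2% (767) higher and 18.3% (870) lower, which is the background for every gene group described here. Their median log2 fold change was −0.09. The libraries of the 2 states lay apart in all 767 host genes called higher and in 869 of the 870 called lower. Such separation therefore comes with a call and adds little to it.

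**Figure D1:**
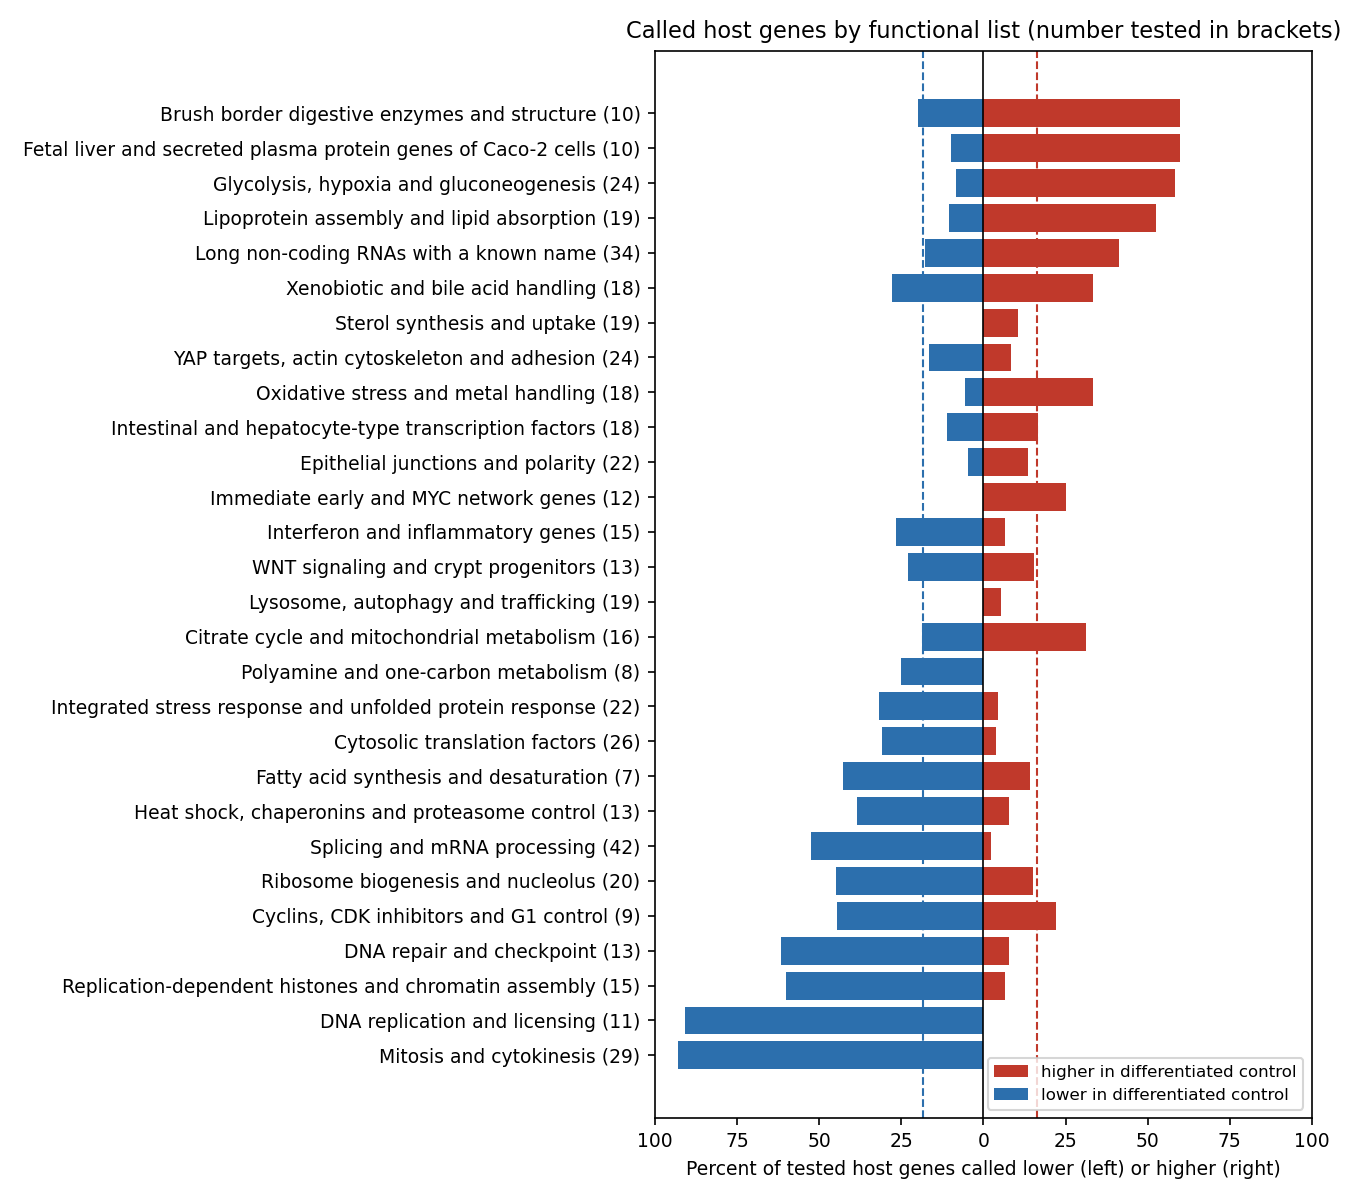
Percent of the tested host genes of each functional group called lower (bars to the left) or higher (bars to the right) in differentiated control than in undifferentiated cells, with groups of at least 7 tested host genes ordered by their median log2 fold change and dashed lines at 18.3% lower and 16.2% higher for all host genes. Mitosis and DNA replication stand at one end with no host gene called higher, and the brush border, fetal liver and glycolysis groups at the other with at least 58.3% called higher.

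The plot of calls by group sets out the range of responses: cell division, histones, RNA processing and translation on the lower side, and absorption, secreted plasma proteins and sugar metabolism on the higher side. The groups were drawn up by gene function but with earlier results of these data known, so their shares are not independent of these data. The groups are described by their counts and medians beside those of all host genes, and no group was tested as a set. Counts of 1 or 2 calls in a group often moved by 1 when a library was left out.

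The machinery of mitosis fell together. Of 29 tested host genes of the mitosis and cytokinesis group, 27 were called lower and none higher, with a median log2 fold change of −3.80, or −3.43 with the limits in place of the fitted values. With any 1 of the 4 libraries left out, 26 to 28 were called lower. CDK1 had 23 and 54 counts in differentiated control cells and 576 and 770 in undifferentiated cells. The 2 states were far apart, and the 4 micelle libraries, also differentiated, lay with the control at 32.6 to 56.5 CPM. The mean was 57.6 ± 17.9 CPM against 1137 ± 328 CPM (SD, n = 2 in each state), a log2 fold change of −4.27 ± 0.32 (SE, adjusted p = 5.78e-08). TPX2, which nucleates spindle microtubules and activates Aurora A, had 22 and 34 counts against 553 and 541 (−4.38 ± 0.31, adjusted p = 3.33e-08). CENPW and CENPK, both kinetochore components, had 5 and 12 against 194 and 147 counts and 0 and 6 against 59 and 65 counts. RACGAP1, which organizes the central spindle during cytokinesis, had 2 and 4 counts against 65 and 79 (−4.64 ± 0.48, adjusted p = 1.60e-06). In each of these genes both differentiated libraries lay below both undifferentiated libraries, as in nearly all host genes called lower. The remaining members, CENPN and FBXO5, had negative log2 fold changes of −1.47 and −0.98 and were not called. The CENPW smORF ends 11 bases from annotated coding sequence of its host, so that footprints on the main reading frame may reach it.

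DNA replication and licensing followed the same direction with fewer counts. Of 11 tested host genes, 10 were called lower and none higher, with a median log2 fold change of −2.15. This count fell to 5 when undifferentiated replicate 1 was left out. MCM5, a subunit of the replicative helicase, had 0 and 2 counts in differentiated control against 39 and 26 in undifferentiated cells, at least 11-fold lower. CDC6, which loads that helicase at origins, had 3 and 4 counts against 46 and 35 (−3.58 ± 0.50, adjusted p = 4.09e-05). LIG1, the ligase that joins Okazaki fragments, had 9 and 10 counts against 49 and 32. Within this group the undifferentiated libraries differed from each other, most visibly for GMNN, the inhibitor of relicensing, at 591 and 172 counts. The call on GMNN was lost without undifferentiated replicate 1 (adjusted p = 0.123). The member not called was PCNA, the sliding clamp, with 2 and 5 counts against 12 and 9. The smORF of FEN1, the flap endonuclease, is shared with FADS2 and its 1 and 1 against 31 and 28 counts cannot be given to either gene, although it stands among the 10 called lower.

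**Figure D2:**
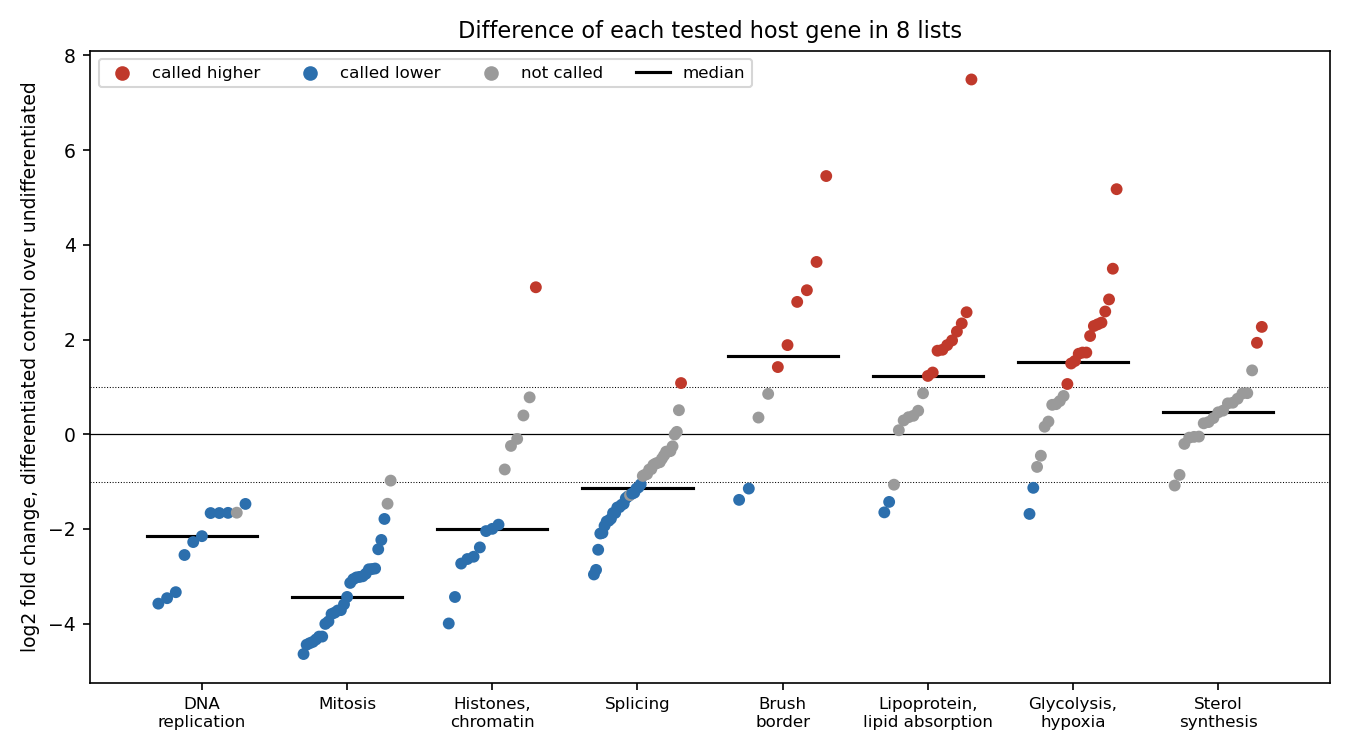
Log2 fold change of differentiated control over undifferentiated for every tested host gene in 8 functional groups, each point a representative smORF, with limits used where a state had at most 3 counts in each library, a line at the group median and dotted lines at plus and minus 1. The 29 points of the mitosis group all lie below 0, while the groups of absorption and of glycolysis hold points on both sides with medians above 0.

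Control of the cell cycle gave a mixed picture in which activators and the main inhibitor moved in opposite directions. Of 9 tested host genes of the cyclin and G1 group, 4 were called lower and 2 higher, and without control replicate 2 the count of lower calls was 2. CDK4, the G1 kinase, had 53 and 66 counts against 173 and 207 (−1.76 ± 0.27, adjusted p = 8.98e-05), and CDK2 had 10 and 15 against 77 and 45. CDKN1A, the p21 inhibitor of these kinases, had 72 and 53 counts against 7 and 4, 11-fold higher in differentiated control (adjusted p = 5.82e-05). In all 3 genes the libraries of the 2 states did not overlap, as in nearly all called host genes.

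Chromatin and repair genes followed the cell cycle. Of 15 tested host genes of the histone and chromatin assembly group, 9 were called lower and 1 higher, and of 13 of the DNA repair group, 8 were lower and 1 higher. H2AZ1, the replacement histone H2A.Z, had 51 and 58 counts in differentiated control against 354 and 294 in undifferentiated cells, 6.21-fold lower (−2.63 ± 0.26, adjusted p = 9.61e-07). Its smORF lies opposite the divergent transcript H2AZ1-DT, and whether the counting used strand is not stated. HMGB2, a chromatin protein of dividing cells, had 4 and 12 counts against 86 and 76. The linker histone H1-2 had 135 and 224 counts against 1495 and 754, and H2AC6 had 338 and 752 against 2882 and 1261. Both histone genes were again higher in undifferentiated replicate 1 than in replicate 2, with all 4 libraries still in separate ranges by state. The H2AC6 smORF lies 8 bases from coding sequence, and a dORF of that gene was called higher with 13 and 22 counts against 3 and 4. By representative smORF the histone called higher was H2BC9, whose smORF is classed as intergenic, with 391 and 580 counts against 59 and 47. Among repair genes, EXO1, an exonuclease of mismatch and break repair, had 1 and 8 counts against 41 and 28, while the repair gene called higher was BRCA1, through a smORF of the non-coding class, with 36 and 68 counts against 18 and 15. In the repair group 4 genes were called lower without control replicate 2 and 3 without undifferentiated replicate 2.

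Sequence features that the grouping did not use were counted in the promoters of the mitosis genes. In RefSeq promoters of GRCh38.p14, from 250 bases before to 50 after the start and read on both strands, the letters TTTGAA, the core of the cell cycle homology region, were present in 15 of the 25 mitosis promoters that could be matched (60%), against 15.4% of all 27305 promoters. They were also present in 4 of 8 matched promoters of the brush border group (50%), in which most genes were called higher. CCAAT, the box bound by NF-Y, was present in 16 of the 25 (64%), against 35.7% of all promoters. Over all host genes TTTGAA was found in 15.5% of the 671 matched promoters of those called lower, 10.4% of the 541 of those called higher and 8.68% of those not called. The E2F letters TTTGGCGC were present in 3 of 9 matched promoters of the replication group (33.3%) against 0.659% of all promoters. These shares describe letters only and not bound sites. The promoter of CCNB2, the mitotic cyclin B2, is printed because it holds both motifs. It was chosen after its values were seen. Its smORF had 2 and 6 counts against 71 and 52 (−4.00 ± 0.49). The window is chr15:59104996-59105145, plus strand, the 150 bases before the start, with CCAAT at 120, 87 and 54 bases and TTTGAA at 29 bases before the start in capitals.
CCNB2 promoter: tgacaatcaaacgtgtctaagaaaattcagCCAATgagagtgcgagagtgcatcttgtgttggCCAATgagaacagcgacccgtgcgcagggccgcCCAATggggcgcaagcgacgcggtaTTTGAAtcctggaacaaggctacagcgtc

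Genes of fat absorption were higher in differentiated cells, led by APOA4. Its uORF had 509 and 898 counts in differentiated control against 4 and 3 in undifferentiated cells. Both differentiated libraries lay far above both undifferentiated libraries, and the micelle libraries ran from 894 to 1865 CPM. The means were 1081 ± 122 against 5.81 ± 0.675 CPM (SD, n = 2 in each state), a log2 fold change of 7.49 ± 0.41 (SE, adjusted p = 3.61e-09). FABP1 was high in both states, with 974 and 868 counts against 275 and 219, and rose 3.69-fold (adjusted p = 0.00336). Of 19 tested host genes of the lipoprotein and lipid absorption group, 10 were called higher and 2 lower, with a median log2 fold change of 1.23. ABCA1 is among the 10 through an intragenic smORF, while a uORF of that gene was called lower. Without undifferentiated replicate 1 the count of higher calls was 6. APOB, the structural protein of chylomicrons, had 57 and 69 counts against 16 and 19, and APOA2, an apolipoprotein of high-density lipoprotein, had 82 and 67 against 23 and 14. GPAT3, an acyltransferase of triglyceride synthesis, had 12 and 28 counts against 3 and 0, at least 5.96-fold higher. APOA1, the main apolipoprotein of high-density lipoprotein, went the other way with 155 and 453 counts against 624 and 807. That call was lost without control replicate 1 or without undifferentiated replicate 2, with an adjusted p of up to 0.0636.

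The brush border group leaned the same way. Of its 10 tested host genes, 6 were called higher, 2 lower and 2 were not called, with a median log2 fold change of 1.65. The 6 include SULT1E1 and FABP1, which is cytosolic and is also counted in the lipid absorption group. SLC26A3, the apical chloride and bicarbonate exchanger of the colon, had 431 and 809 counts against 19 and 7, 43.7-fold higher (5.45 ± 0.36, adjusted p = 2.35e-08). XPNPEP2, a membrane aminopeptidase, had 17 and 38 counts against 0 and 0, at least 8.23-fold higher. MYO1A, the motor that links microvillar actin to the membrane, had 185 and 245 counts against 101 and 53 (1.42 ± 0.29, adjusted p = 0.00104). PDZK1, a scaffold of apical transporters, was lower with 19 and 38 counts against 75 and 63. Several classic hydrolases could not be tested: DPP4 had 2 and 9 counts against 6 and 2, and ANPEP had 0 and 2 against 2 and 0. Of the broader epithelial marker list 5 of 11 genes could be tested, 2 of these were called higher and none lower.

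**Figure D3:**
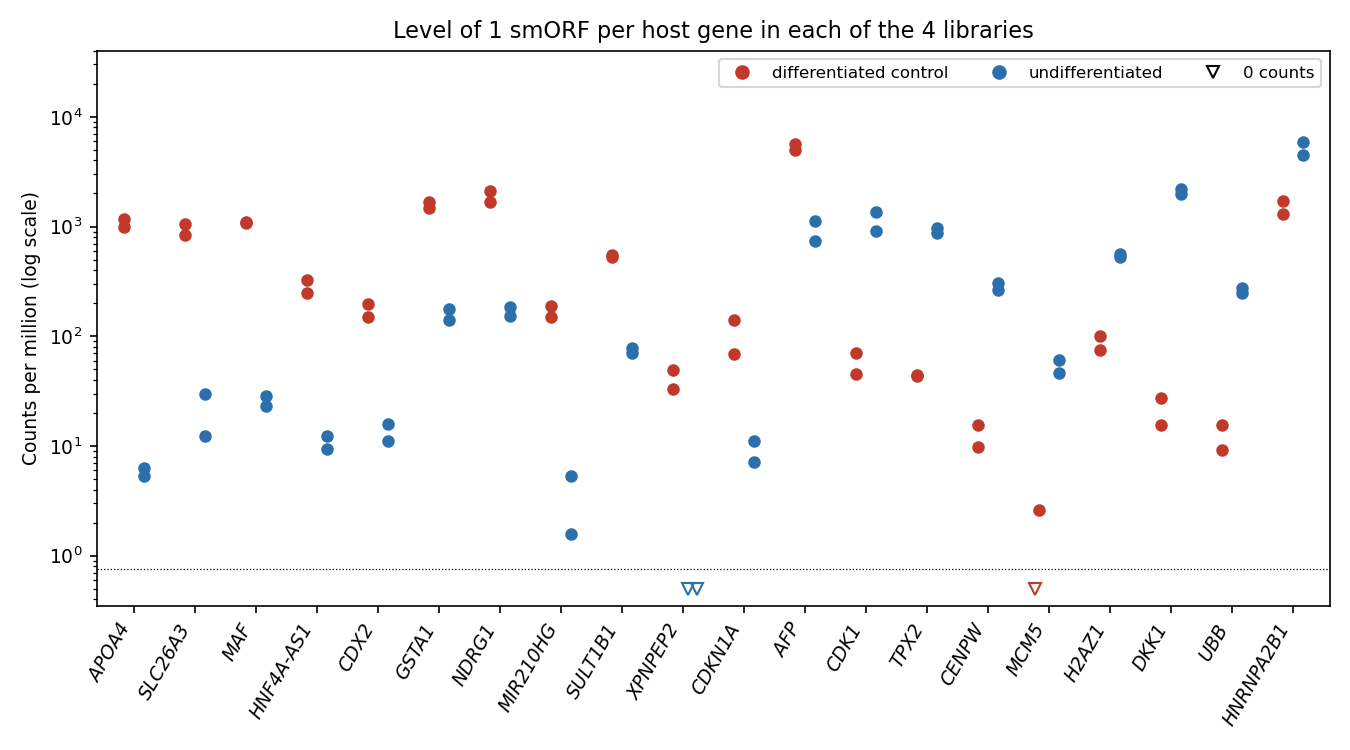
Level in CPM, on a log axis, of the representative smORF of 20 host genes in each of the 2 differentiated control and 2 undifferentiated libraries, with open triangles for libraries at 0 counts. The replicates of a state lie close together beside the distance between states, as for APOA4 at a mean of 1081 CPM against 5.81 CPM and for DKK1 at 21.5 CPM against 2077 CPM.

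Regulators and conjugating enzymes of the enterocyte changed in part. Of 18 tested host genes of the intestinal and hepatocyte-type transcription factor group, 3 were called higher and 2 lower, near the background shares. MAF, a leucine zipper factor, had 549 and 852 counts against 18 and 13, and its 1091 ± 24.7 CPM against 25.7 ± 3.67 CPM gave a log2 fold change of 5.39 ± 0.31 (SE, adjusted p = 6.42e-09). CDX2, the homeobox factor that specifies intestine, was represented by a dORF with 77 and 152 counts against 7 and 9, 12.9-fold higher. Also counted among the 3 called higher was HNF4A-AS1, a non-coding RNA and not itself a transcription factor. Its smORF had 127 and 249 counts against 6 and 7 and rose 26-fold (adjusted p = 7.55e-08). GATA6, an endodermal factor, was lower with 15 and 49 counts against 90 and 78, on a smORF opposite GATA6-AS1. KLF5, a factor of crypt cells, had 232 and 425 counts against 196 and 201 and was not called (0.60 ± 0.25, adjusted p = 0.0682). The xenobiotic and bile acid group had 6 of 18 called higher and 5 lower, but 3 of these 5 are UGT1A genes represented by the same smORF. GSTA1, a glutathione transferase, had 861 and 1135 counts against 113 and 79, 9.91-fold higher, and SULT1B1, a sulfotransferase of thyroid hormone and phenols, had 268 and 425 against 45 and 44. NR1I3, the nuclear receptor CAR, had 29 and 57 counts against 0 and 1, at least 13-fold higher. The smORF shared by the UGT1A genes, which encode glucuronidating enzymes, was lower with 3 and 9 counts against 35 and 23.

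Caco-2 cells express genes of fetal liver, and most of those tested were higher in differentiated control. Of 10 tested host genes of that group, 6 were called higher and 1 lower, with a median log2 fold change of 1.65. AFP, the fetal serum protein alpha-fetoprotein, had 2543 and 4366 counts against 708 and 415, 5.75-fold higher (2.52 ± 0.26, adjusted p = 1.41e-06), and the micelle libraries lay at 5651 to 7126 CPM beside 5325 ± 500 CPM in differentiated control. SERPINA1, the inhibitor of neutrophil elastase, had 1890 and 3415 counts against 1169 and 812, and AHSG, the plasma protein fetuin-A, had 26 and 35 against 8 and 2. RBP4, the retinol carrier of plasma, fell from 14 and 20 counts to 0 and 1, at least 5.89-fold lower.

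Genes of sugar metabolism and hypoxia were mostly higher. Of 24 tested host genes, 14 were called higher and 2 lower, with a median log2 fold change of 1.52, and 11 to 14 were called higher when any 1 library was left out. SLC2A2, the GLUT2 glucose transporter, had 13 and 36 counts against 2 and 2, at least 7.19-fold higher. Outside this group, SLC2A5, the fructose transporter, had 27 and 71 counts against 0 and 0, at least 14.4-fold higher. NDRG1, a gene induced by hypoxia and differentiation, had 1073 and 1296 counts against 97 and 103, 11.3-fold higher. MIR210HG had 97 and 116 counts against 1 and 3, at least 33.9-fold higher, with the micelle libraries at 114 to 198 CPM. ANKRD37, also known for its response to hypoxia, had 15 and 24 counts against 1 and 3 on a smORF opposite UFSP2. LDHB, the lactate dehydrogenase subunit that is abundant in oxidative tissue, fell from 2230 and 1109 counts to 406 and 701 (−1.68 ± 0.28, adjusted p = 2.06e-04). The other member called lower was ADM. Its call was not kept by DESeq2 (log2 fold change −1.14, adjusted p = 0.0914), nor in 3 fits with 1 library left out.

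Mitochondrial metabolism was split. Of 16 tested host genes 5 were called higher and 3 lower, with a median log2 fold change of −0.09, the same as over all host genes, and 1 was lower without undifferentiated replicate 2. CPS1, the mitochondrial enzyme that makes carbamoyl phosphate for citrulline synthesis in gut and liver, was represented by an intragenic smORF with 227 and 330 counts against 8 and 6, 36.8-fold higher (5.20 ± 0.37, adjusted p = 3.33e-08). OAT, ornithine aminotransferase, had 30 and 63 counts against 8 and 9. In the sterol group 2 of 19 were called higher and none lower, and 5 were higher without control replicate 1. HMGCS1, the synthase of the mevalonate pathway, had 17 and 25 counts against 4 and 4, and INSIG2, which retains the sterol sensor in the endoplasmic reticulum, had 28 and 42 against 8 and 9. FDPS, the farnesyl diphosphate synthase, had 348 and 624 counts against 453 and 315 and was not called (adjusted p = 0.486). Of 7 tested host genes of fatty acid synthesis, 1 was called higher and 3 lower, and 1 of the 3 is FADS2 through the smORF shared with FEN1. ACSS2, which makes acetyl-CoA from acetate, had 68 and 84 counts against 17 and 20, and ACLY, which makes it from citrate, had 31 and 45 against 105 and 80.

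The secreted WNT antagonist DKK1 showed the strongest fall among host genes when limits stand in for fitted values. By the fitted value, host genes with no counts in differentiated control lay further below 0, such as REG4, a secreted lectin with 0 and 0 counts against 78 and 53 (at least 22.2-fold lower), and PDGFRA. DKK1 had 8 and 21 counts in differentiated control against 1252 and 1230 in undifferentiated cells, and the micelle libraries held 9.68 to 14.5 CPM. The log2 fold change was −6.53 ± 0.34 (SE, adjusted p = 3.16e-09), 92.7-fold lower. Its smORF ends 4 bases from coding sequence and lies opposite PRKG1-AS1. The WNT and crypt group, DKK1 included, had 2 of 13 called higher, 3 lower and a median of −0.03. Without control replicate 1 or undifferentiated replicate 2, 1 was called lower, and 1 was called higher without control replicate 2 or either undifferentiated library. LGR5, the receptor that marks crypt stem cells, had 1 and 0 counts against 4 and 6 and was too low to be tested. SPTSSB, a small subunit of serine palmitoyltransferase, was also among the 12 host genes with the strongest fall, with 12 and 36 counts against 584 and 598. UBB, a polyubiquitin gene, had 8 and 7 counts against 174 and 140, 21.7-fold lower.

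Markers of other intestinal cell types were few and moved in both directions. Of 40 markers of goblet, Paneth, enteroendocrine and tuft cells, 4 had a smORF and could be tested, and 2 were called in each direction. ZG16, a lectin of goblet cell granules, had 68 and 97 counts against 5 and 0, and TFF2, a trefoil peptide, had 59 and 126 against 35 and 24. AGR2, the disulfide isomerase that folds mucin, fell from 2778 and 1675 counts to 473 and 806 (−1.90 ± 0.26). Of 35 mesenchymal and immune markers 16 carried a smORF and 2 could be tested. Their summed level was 5.86 and 9.10 CPM in differentiated control and 53.4 and 46.2 CPM in undifferentiated cells, and their part in the other results was not tested. COL1A2, COL6A2, THY1, PDGFRB, ACTA2, FAP, ZEB2, PTPRC and MS4A1 were at 0 in all 4 libraries. TAGLN, an actin-binding protein of smooth muscle, had 0 and 0 counts against 18 and 7, and LUM, a matrix proteoglycan, had 1 and 0 against 9 and 3, both too low to be tested. PDGFRA, the receptor for platelet-derived growth factor, had 0 and 0 counts against 20 and 16, at least 6.13-fold lower.

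Most junction genes were not called. Of 22 tested host genes of epithelial junctions and polarity, 3 were called higher and 1 lower, with a median log2 fold change of 0.06. Without undifferentiated replicate 1, 1 was called higher, and without control replicate 2 or undifferentiated replicate 2, 2 were lower. TJP1, the tight junction scaffold ZO-1, fell from 51 and 36 counts to 7 and 15 (−2.08 ± 0.40). KRT8, a keratin of simple epithelia, had 20 and 29 counts against 1 and 1, at least 7.65-fold higher, on a smORF opposite KRT18. In the group of YAP targets and cytoskeleton, 2 of 24 were called higher and 4 lower, with 1 lower without control replicate 2 and 2 without any of the others. In the lysosome and autophagy group 1 of 19 was higher and none lower, below the background in both directions.

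RNA processing moved to the lower side. Of 42 tested host genes of splicing and mRNA processing, 22 were called lower and 1 higher, with a median log2 fold change of −1.13, and 13 were called lower without control replicate 2. HNRNPA2B1, an abundant RNA-binding protein of the nucleus, had 669 and 1318 counts against 3785 and 2509, and its 1511 ± 287 CPM against 5204 ± 1053 CPM gave a log2 fold change of −1.78 ± 0.26 (SE, adjusted p = 4.92e-05). SNRPD1, a core protein of the spliceosomal ribonucleoproteins, had 4 and 23 counts against 106 and 86, and DHX9, an RNA helicase, had 15 and 19 against 96 and 79 on a smORF opposite DHX9-AS1. The gene called higher was SRSF5, a splicing factor rich in serine and arginine, with 513 and 773 counts against 301 and 268 (1.08 ± 0.24, adjusted p = 0.00208). In each of these genes the 2 states did not overlap, as in nearly all called host genes.

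Ribosome production and translation factors also leaned to the lower side, the translation factors with a smaller median log2 fold change of −0.74. Of 20 tested host genes of ribosome biogenesis, 9 were called lower and 3 higher, with a median of −1.14. Without control replicate 2, 5 were called lower. DDX52 and DDX21, helicases that process ribosomal RNA, had 11 and 15 counts against 102 and 128 and 7 and 11 counts against 62 and 93. PES1, a factor of the large subunit, went the other way with 13 and 20 counts against 1 and 3, at least 5.12-fold higher. Of 26 tested translation factors, 8 were called lower and 1 higher, with 5 lower without control replicate 2 and 4 without undifferentiated replicate 2. EIF5A, which helps ribosomes through stalling stretches, had 12 and 23 counts against 81 and 78, and PABPC4, a poly(A)-binding protein, had 20 and 40 against 134 and 127. EIF1, which guards start codon choice, was the factor called higher with 22 and 32 counts against 6 and 7.

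Stress groups did not move as blocks. The integrated stress and unfolded protein response group had 7 of 22 called lower and 1 higher, with 3 lower without undifferentiated replicate 2. The heat shock and proteasome control group had 5 of 13 lower and 1 higher, with 3 lower without undifferentiated replicate 2, and its higher member was NFE2L1, the factor that drives proteasome genes, with 518 and 1157 counts against 312 and 245. In the oxidative stress and metal group 6 of 18 were called higher and 1 lower, and 4 were called higher without undifferentiated replicate 1 or replicate 2. SLC11A2, the apical iron transporter, had 62 and 97 counts against 8 and 2, 14.6-fold higher (3.87 ± 0.41, adjusted p = 2.00e-06), and SLC30A1, a zinc exporter, had 95 and 121 against 32 and 35. TXNRD1, the cytosolic thioredoxin reductase, fell from 41 and 50 counts to 11 and 11. Of 12 immediate early and MYC network genes 3 were called higher and none lower, with JUN at 83 and 113 counts against 36 and 13.

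Long non-coding RNAs lay mostly on the higher side. Of 34 tested host RNAs with a known name, 14 were called higher and 6 lower, with a median log2 fold change of 0.86. Among 170 RNAs named as antisense to a gene, 67 were called higher and 7 lower. Among 95 LINC RNAs 33 were higher and 14 lower. In both groups the higher as well as the lower calls were fewer in every fit with 1 library left out. EGFR-AS1, antisense to the growth factor receptor gene, had 292 and 557 counts against 49 and 44, 8.34-fold higher, and FABP6-AS1, antisense to the bile acid carrier gene, had 80 and 150 against 2 and 5, 29.2-fold higher. LINC02754 had 315 and 507 counts against 22 and 20 (4.18 ± 0.29, adjusted p = 2.72e-08). LINC02413 went the other way with 3 and 3 counts against 122 and 83, at least 34.7-fold lower, and LINC00242 had 0 and 1 against 56 and 48. SNHG3, a host of small nucleolar RNAs, fell from 303 and 199 counts to 27 and 35 on a smORF that is shared with RCC1. Of 72 divergent and intronic transcripts 22 were higher and 2 lower, with 10 higher without control replicate 2, 12 without undifferentiated replicate 1 and 13 without undifferentiated replicate 2.

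smORFs of the same host gene did not always change alike. There were 1245 host genes with 2 or more tested smORFs that do not overlap, and in 126 of them (10.1%) the smORFs differed in fold change at a gene-level adjusted p below 0.05. In 308 of the 1245 genes at least 2 smORFs were called, in the same direction in 286 of these and in both directions in 22. The starts of smORFs that differed are printed for 3 genes, with coordinates of the whole smORF, to show that each pair reads different stretches of its gene. CLCN5, an endosomal chloride and proton exchanger, is represented by IEC_04151 (chrX:49922675-49925267, plus strand) and IEC_04153 (chrX:50067627-50067644, plus strand). SPATS2L is represented by IEC_05209 (chr2:200306303-200306542, plus strand) and IEC_05559 (chr2:200378034-200378063, plus strand), and KAT14, a subunit of a histone acetyltransferase complex, by IEC_04229 (chr20:18142423-18142530, plus strand) and IEC_07614 (chr20:18145138-18145197, plus strand). Up to 30 bases are shown, with the first codon in capitals.
CLCN5 IEC_04151: AGCtctgccggctacgtggggcgctcactc
CLCN5 IEC_04153: ATGcagcaagtgcccttc
SPATS2L IEC_05209: ATGattctcttgcaacacgtgcggattgtg
SPATS2L IEC_05559: ATGaagagctggcattcactaacaggaccc
KAT14 IEC_04229: CTTagtagtatcttcatctttttttttggt
KAT14 IEC_07614: ATGggaaaggaaaatctgggtgataaacgg

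The smORFs contrasted here lie in no common annotated transcript of their gene, in these 3 genes as in the other 5 with the smallest gene-level adjusted p. In ABCA1, P4HA2 and ARAP1 this had to be so, because IEC_24055, IEC_17338 and IEC_21544 lie in no annotated transcript of their gene. It is also not true of every pair: in CAB39L, IEC_18153, not called, and IEC_16176, called lower, share 1 annotated transcript. In CLCN5 the upstream smORF had 5 and 16 counts against 41 and 48 (−2.20 ± 0.46), whereas IEC_04153, 144952 bases downstream, had 32 and 77 against 6 and 7 (2.91 ± 0.43). The gene-level adjusted p was 2.69e-07, and each smORF separated the states in the opposite order. In SPATS2L the upstream smORF fell with 18 and 40 counts against 105 and 91, and IEC_05559, 71731 bases downstream, had 25 and 27 against 1 and 1, at least 8.36-fold higher. In KAT14 the upstream smORF, which is shared with PET117 so that its counts cannot be given to either gene, had 33 and 48 counts against 22 and 10, and the smORF 2715 bases downstream had 6 and 8 against 119 and 45. The higher call on the upstream KAT14 smORF was lost without undifferentiated replicate 2 (adjusted p = 0.142), while the gene-level difference held.

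**Figure D4:**
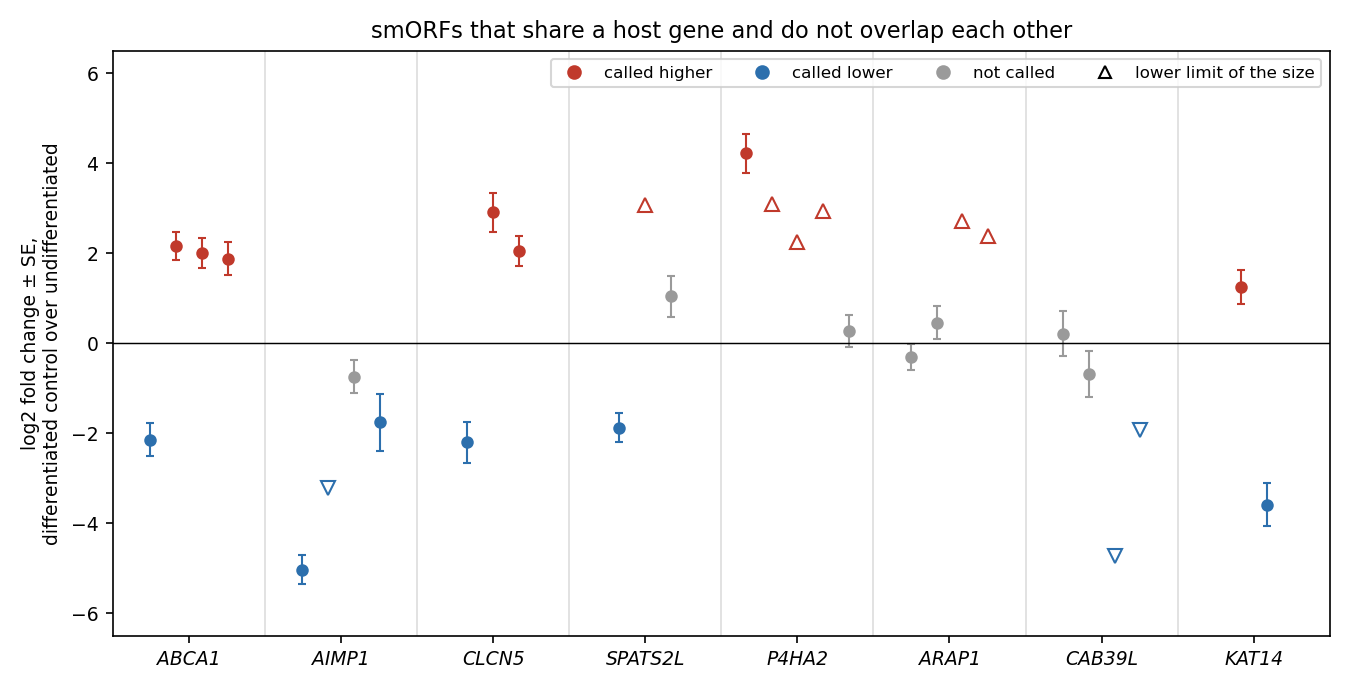
Log2 fold change with its SE for each tested smORF of the 8 host genes with the smallest gene-level adjusted p, with open triangles at the limit where a state had at most 3 counts in each library. In CLCN5, SPATS2L, ABCA1 and KAT14 smORFs lie on both sides of 0, and in the other 4 genes some lie far from 0 and others near it.

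Of the other genes in the plot of smORFs by host gene, ABCA1 also had smORFs called in both directions. In ABCA1, the cholesterol efflux transporter, a uORF had 19 and 17 counts against 84 and 69 (−2.14 ± 0.36), while the intragenic IEC_24055 had 163 and 276 against 56 and 35 (2.17 ± 0.31). That uORF lies 9 bases from coding sequence, and without smORFs so close to coding exons the gene-level adjusted p was 0.917. In P4HA2, a collagen prolyl hydroxylase, IEC_19134 had 49 and 97 counts against 5 and 2 (4.22 ± 0.43), and IEC_17338 had 35 and 59 against 45 and 28 and was not called. In ARAP1, a GTPase-activating protein, IEC_15528 had 17 and 25 counts against 0 and 0, and IEC_21544, which is shared with STARD10 and lies in no annotated ARAP1 transcript, had 45 and 93 against 83 and 74 and was not called. In CAB39L, a scaffold of the LKB1 kinase, the 27-base IEC_19908 had 0 and 2 counts against 84 and 72, at least 26.6-fold lower, beside IEC_18153 with 12 and 15 against 14 and 8. In AIMP1, a scaffold of the multi-tRNA synthetase complex, IEC_03241 fell from 441 and 308 counts to 10 and 14 (−5.03 ± 0.32), and IEC_12359 had 16 and 34 against 51 and 27 and was not called. The AIMP1 smORFs lie opposite TBCK.

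smORFs called higher and lower differed in the first codon of their deposited reading frame. That codon is where the called frame opens, and initiation at it was not measured. Of those called higher, 55.2% began with ATG, against 25.5% of those called lower, 37.9% of those not called and 39.0% of all tested. The same order held among uORFs, at 42%, 22.7% and 31.6% for higher, lower and not called, and among smORFs of non-coding RNAs, at 68.3%, 47.9% and 60%. It also held with 1 smORF per overlap cluster, at 63.4%, 34.6% and 46%, and among smORFs at least 30 bases from coding exons, at 56.9%, 28.0% and 39.9%. smORFs that were lower lay within 30 bases of coding sequence more often, at 19.8% against 9.73% of those higher and 15.4% of those not called. Median lengths were 37, 32 and 33 codons for those higher, lower and not called. The smORFs share libraries, hosts and overlapping reads, so these shares are a description with no test.

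**Figure D5:**
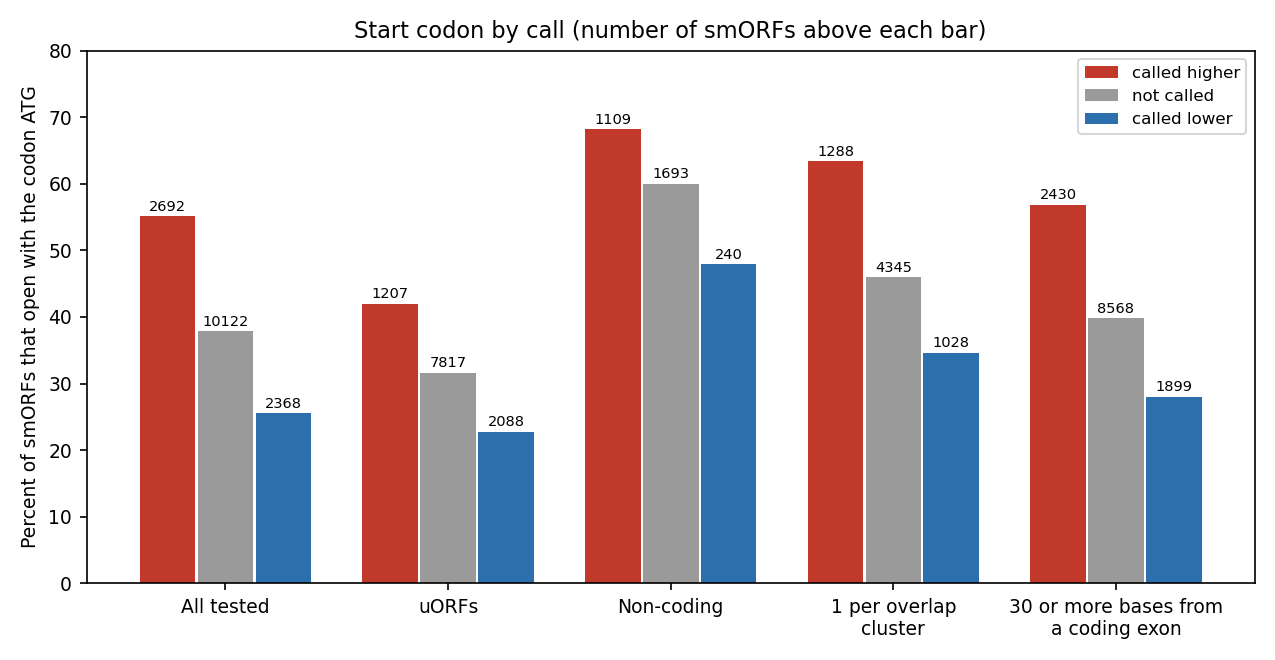
Percent of smORFs that begin with ATG among those called lower, not called and called higher in differentiated control, for all tested smORFs and within 4 subsets, with the number of smORFs above each bar. In each of the 5 sets the smORFs called higher have the highest share, 55.2% over all tested, and those called lower the lowest, 25.5%.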

How the data were processed

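Ribo-Seq libraries of Caco-2 cells were made after cycloheximide treatment with RNase I footprinting. The authors aligned reads to hg38 with STAR (version 2.7.11a in the submitters' processing notes), called smORFs of up to 150 amino acids with RibORF, and kept those outside known coding regions. A RibORF score, at least 0.7 for each smORF, is in the deposited annotation. HOMER then gave reads per smORF, and the authors deposited these counts unnormalized. Strand, exon and multi-mapping options of the counting are not given in the sources used here, so that smORFs that overlap another, lie opposite an exon (2674), over small RNA exons (219) or in repeated genes are uncertain. Deposited uORF and dORF classes include smORFs upstream or downstream of a transcript.

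Groups came from the labels. The test was that of edgeR 4.0.16 under R 4.3.3 (filterByExpr, TMM, quasi-likelihood, a term per group over all 8 libraries that share 1 estimate of the spread), two-sided and adjusted over the 15182 smORFs tested. Fold changes of smORFs of 1 gene, 1 per overlap cluster, were compared with diffSpliceDGE of edgeR, adjusted over 1245 genes. CPM used TMM-scaled library sizes. Totals of 506382 to 884711 counts limit precision, and counts are not molecules. Alternatives were DESeq2 1.42.0, its size factors, other filters, a replicate block, leaving out each library, and 1 smORF per cluster.

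The members and gene lists were chosen with earlier results of these data known. Named genes were any member of lists with up to 12 tested genes, and in longer lists the 4 most changed called genes per direction and the 2 of highest level. The 12 most changed per direction among all host genes and the 8 with the smallest gene-level adjusted p were added, and members too low to be tested could be named. CCNB2 was added after its values were seen, and a few genes under the rule are not reported here. Distances to coding exons came from GENCODE 44, and promoters from RefSeq GRCh38.p14.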

Additional observations from a re-analysis of the deposited data

How the results depend on the processing

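Of the smORFs 5060 were called, against 5060 with DESeq2's size factors, 5984 without a filter on counts and 4687 when fitted on the 4 libraries alone. The count fell to 3301 with DESeq2, to 1562 of 6629 tested with 10 counts in every library, and to 2316 of 6661 with 1 smORF per overlap cluster, and ran from 3603 to 4142 with 1 library left out. Of host genes 1637 were called, 1137 with DESeq2, 611 with 10 counts in every library and 1213 to 1364 with 1 library left out. Genes whose smORFs differed numbered 126, and 69 to 89 with 1 library left out. Leaving out smORFs within 30 bases of coding exons, an alternative chosen after seeing the data, gave 4345, 1431 and 84. Medians of small lists changed sign with few members: DNA repair to 0.37 with 10 counts in every library, polyamine genes, at −0.28, to 0.034 without undifferentiated replicate 2 (−0.59 to 0.034 with 1 library left out), cytochromes P450 to −0.85 with 10 counts, −0.86 on the 4 libraries alone and −0.96 away from coding exons, HOX genes to −1.16 away from coding exons, and small nucleolar RNA host genes to −0.27 without small RNA overlaps. The 3 HOX genes called higher, HOXC4, HOXC5 and HOXC6, are represented by the same smORF. The cause of these sign changes was not tested. Of 290 named calls, 195 held with every library left out in turn and none reversed, and DESeq2 lost 45. Equal replicate numbers did not pair the libraries of the 2 states (correlation of deviations −0.0532). For the other pairs of groups this correlation ran from −0.0168 to 0.173, the highest between differentiated control and micelles without lipid. A replicate block gave 5133 smORFs, 1665 host genes and 136 genes whose smORFs differed. Counts of a few per library limit the low genes, given as limits, and intervals of counting error would not cover variation between cultures.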

Other observations

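Families not described so far ranged from mixed changes to calls in the lower direction only, against 16.2% of all host genes called higher and 18.3% lower. Of 46 tested cytosolic ribosomal proteins 11 were called lower and 4 higher, with 7 lower without control replicate 1 or undifferentiated replicate 1, and RPL10, a protein of the large subunit, had 14 and 21 counts in differentiated control against 206 and 121 in undifferentiated cells. Of 19 mitochondrial ribosomal proteins 5 were lower and 3 higher, with 3 lower without control replicate 2, and MRPS26 was higher at 203 and 329 counts against 18 and 14. Proteasome subunits were called lower in 6 of 18 and higher in none, among them PSMB2 (−1.77) and PSMB3 (−1.66) on the log2 scale. Ubiquitin-conjugating enzymes were lower in 6 of 13 and higher in none, with 1 lower without control replicate 2. Of the heterogeneous nuclear ribonucleoproteins 8 of 13 were lower and none higher, with 4 lower without control replicate 2, and of aminoacyl-tRNA synthetases 5 of 10 were lower and 1 higher, with 3 lower without control replicate 2 or undifferentiated replicate 1.

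Carriers divided by gene. Of 92 tested solute carriers 16 were called higher and 22 lower, with a median log2 fold change of −0.19. SLC46A3, a lysosomal carrier, had 35 and 51 counts against 0 and 0, at least 13.4-fold higher, whereas SLC1A3, a glutamate transporter, fell from 235 and 253 counts to 18 and 26 and SLC38A2, an amino acid transporter induced by starvation, from 1130 and 900 to 311 and 456. Of 125 zinc finger proteins 16 were called higher and 10 lower, with 9 higher and 6 lower without control replicate 2 and 5 lower without undifferentiated replicate 1. Of 24 RAB GTPases 1 was higher and 2 lower. Interferon and inflammatory genes had 1 of 15 higher and 4 lower, and 2 lower without control replicate 1 or either undifferentiated library. Respiratory complex I had 2 of 11 called lower and none higher. Of 13 genes of cytochrome c oxidase and its assembly, 1 was higher and 2 lower, COX4I1 among these at −1.99, and of 9 of ATP synthase 1 was higher and 2 lower, with 4 lower without control replicate 2 and ATP5MC1 at −2.25. Polyamine and one-carbon genes had 2 of 8 called lower and none higher.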
